A study of Saccharomyces cerevisiae with 4 samples.

Results

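Peroxisomes burn fatty acids in yeast, and the genes for this work fall into an enzyme part and a building part. Fatty acids are activated with coenzyme A, enter the peroxisome and are shortened there by beta-oxidation, and the acetyl units leave either as organic acids or on carnitine, which carries them into mitochondria. The Pex proteins, called peroxins, insert the membrane proteins, import the matrix enzymes and set the number and size of the organelle. Beta-oxidation enzymes are known to be repressed on glucose and induced by oleate through the factors Oaf1, Pip2 and Adr1.

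The 36 genes described here were listed by name for their roles, with earlier results of these data known. They are 14 metabolic genes of fatty acid activation and import, beta-oxidation and the carnitine shuttle, and 22 PEX genes of peroxisome biogenesis, out of 7126 features in the count files. All 36 matched a feature, they lie on 13 chromosomes, and all passed the minimum of 20 own-strand reads over both libraries, with 139 reads for the lowest gene and 11052 for the highest.

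The values are PAR-CLIP reads. In that method RNA is crosslinked by ultraviolet light to an RNA-binding protein, here Mip6, after cells took up 4-thiouracil. All samples had light of 365 nm for 15 min. The Saccharomyces cerevisiae strain was Mip6-HTB, so every group carried the tagged Mip6. It was grown in synthetic medium with glucose and either kept at 30 °C, with 45 min of 4-thiouracil, or given 25 min of it at 30 °C and then 20 min at 39 °C. The labels list 4 samples, which are the minus and the plus strand of a 30 °C library and of a 39 °C library, so the strands are no replicates of each other. The sources used here do not name the promoter of the tagged gene, or say whether both temperatures came from 1 culture or clone.

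The 30 °C library held 11657228 reads in features and the 39 °C library 6950540. With 1 library per temperature there is no test between temperatures, and each interval below is a 95% interval for counting error alone, which leaves out the difference between cultures. PCR copies are not independent molecules, so the intervals may be too narrow even for that. No untagged or input sample was among them, so a level reflects the amount of mRNA as well as its crosslinking. Reads from RNA not crosslinked to Mip6 cannot be told apart from the rest either. A gene's own-strand reads were those in the sample of its coding strand, given as CPM, that is, scaled to a common total of reads in features of both strands of that library. For levels CPM was divided by the feature length in kilobases. Own-strand reads made up 91.3% and 91.4% of the reads in stranded features of the 2 samples at 30 °C and 88.5% and 88.7% at 39 °C.

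The first comparison set the metabolic genes against the PEX genes by level. At 30 °C the metabolic genes were read at a median of 20.0 CPM per kilobase and the PEX genes at 84.0, a ratio of 4.19. Undivided by length, the median own-strand CPM was 41.3 for the metabolic genes and 114 for the PEX genes, a ratio of 2.75, since the metabolic genes are longer, with a median of 2.08 kilobases against 1.13. Per kilobase, the median of all 6162 tested features was 74.1, with the middle 50% between 33.7 and 163.5. Thus 9 of the 14 metabolic genes lay in the lowest 25% of all features and 3 lay above the median, while 2 of the 22 PEX genes lay in the lowest 25% and 11 above the median. The PEX genes as a group were therefore placed much as all features are, and the low levels were on the metabolic side.

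At 39 °C the medians were 35.9 CPM per kilobase for the metabolic and 92.4 for the PEX genes, a ratio of 2.58, against 73.5 for all features. In CPM undivided by length the medians at 39 °C were 59.8 and 114, a ratio of 1.91. With both strands summed the ratio per kilobase was 4.11 at 30 °C and 2.51 at 39 °C. Leaving out the 11 genes with at least 20% of reads on the opposite strand gave 2.02 and 1.95. Own-strand reads enter that share, so this step is not independent of level. It dropped 7 of the 14 metabolic and 4 of the 22 PEX genes. At 30 °C it dropped YAT1 at 3.53 CPM per kilobase, POX1 at 5.84 and FOX2 at 13.9, but also PEX21 at 69.1. It kept CRC1 at 14.7 and PEX14 at 17.4. The 30 °C median thereby rose from 20.0 to 49.8 for the metabolic genes and from 84.0 to 101 for the PEX genes. By share of all reads, the 14 metabolic genes held 0.118% at 30 °C and 0.147% at 39 °C, with Clopper-Pearson intervals of 0.116 to 0.120 and 0.145 to 0.150, of which FAA1 alone held a large part. Without FAA1 these shares were 0.0636% and 0.0802%. The 22 PEX genes held 0.245% (0.242 to 0.248) and 0.248% (0.244 to 0.252).

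**Figure D1:**
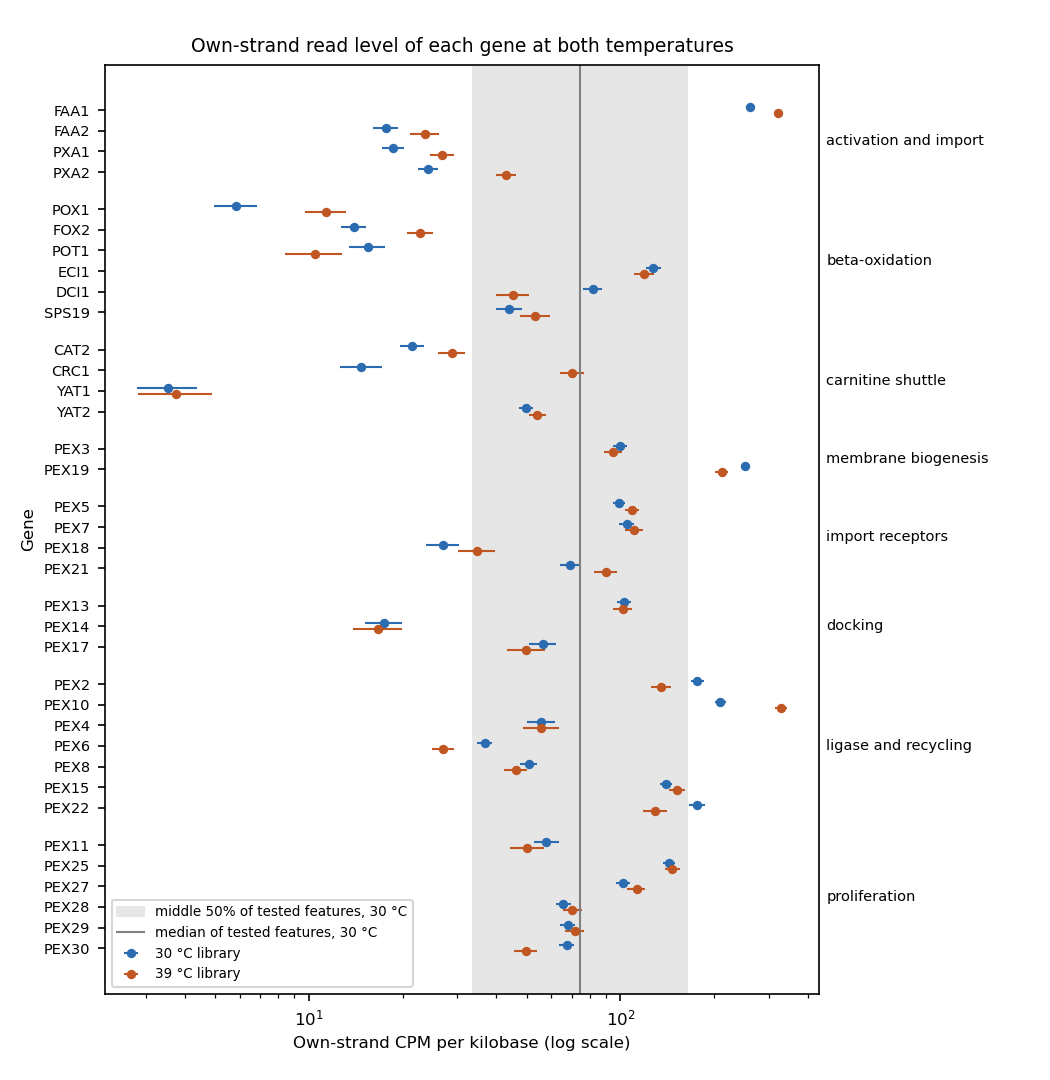
Own-strand read level of each of the 36 genes, in CPM per kilobase on a log axis, at 30 °C (blue) and 39 °C (orange), with exact Poisson 95% intervals of the read counts. The grey band is the middle 50% of all tested features at 30 °C (33.7 to 163.5) and the line their median of 74.1. Apart from FAA1, ECI1 and DCI1, every metabolic gene lies left of that line at 30 °C.

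Within the metabolic genes the levels spanned a wide range. FAA1, a long-chain acyl-CoA synthetase that also serves lipid synthesis outside the peroxisome (YOR317W, chromosome XV, 909343 to 911445, build R64), was by far the highest, with 6378 own-strand reads at 30 °C and 4674 at 39 °C. Its level was 260.2 CPM per kilobase (254 to 267) at 30 °C and 319.8 (311 to 329) at 39 °C. FAA2, the peroxisomal synthetase for medium chains, had 17.7 (16.1 to 19.4) and 23.6 (21.2 to 26.1). FAA1 and FAA2 therefore stood more than 10-fold apart at both temperatures. Of the synthetase genes outside the list, FAA3 had 205 (200 to 211) and 180 (174 to 187). FAA4 had 70.8 (67.5 to 74.2) and 33.0 (30.1 to 36.1), much nearer to FAA2.

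PXA1 and PXA2 code for the subunits of the ABC transporter that brings long-chain acyl groups into the peroxisome. PXA1 had 18.6 CPM per kilobase (17.1 to 20.2) at 30 °C and 26.9 (24.5 to 29.4) at 39 °C. PXA2 had 24.1 (22.4 to 26.0) and 43.0 (40.0 to 46.1). The intervals of these partner genes did not overlap at either temperature.

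The enzymes of the main beta-oxidation spiral were among the least read of the 36 per kilobase. POX1, acyl-CoA oxidase and the entry to the spiral (YGL205W, chromosome VII, 108158 to 110404), had 153 own-strand reads at 30 °C and 177 at 39 °C. That is 5.84 CPM per kilobase (4.95 to 6.84) and 11.3 (9.73 to 13.1). FOX2, the multifunctional hydratase and dehydrogenase, had 13.9 (12.7 to 15.3) and 22.8 (20.7 to 25.0). POT1, the thiolase that releases acetyl-CoA, had 15.5 (13.5 to 17.6) and 10.4 (8.41 to 12.8).

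The auxiliary enzymes for unsaturated fatty acids stood above the main spiral per kilobase. ECI1, enoyl-CoA isomerase, had 128 CPM per kilobase (121 to 135) at 30 °C and 119 (111 to 129) at 39 °C. Its paralog DCI1 had 81.5 (75.8 to 87.4) and 45.1 (39.8 to 51.0). SPS19, dienoyl-CoA reductase, had 44.0 (40.0 to 48.3) and 53.4 (47.7 to 59.5). Per kilobase, each of these 3 exceeded POX1, FOX2 and POT1 at both temperatures by more than the counting intervals. Undivided by length the order against FOX2 did not hold throughout. At 39 °C FOX2 had 61.6 CPM (55.9 to 67.7), above DCI1 with 36.8 (32.5 to 41.6) and SPS19 with 46.9 (41.9 to 52.3). ECI1, with 101 (93.4 to 108), stayed above FOX2.

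In the carnitine shuttle, YAT2, a carnitine acetyltransferase of the cytosol, was the most read at 30 °C with 49.8 CPM per kilobase (47.4 to 52.3), and it had 54.1 (50.9 to 57.5) at 39 °C. CAT2, the acetyltransferase of peroxisomes and mitochondria, had 21.4 (19.6 to 23.4) and 28.8 (26.1 to 31.8). YAT1, the acetyltransferase of the outer mitochondrial membrane (YAR035W, chromosome I, 190193 to 192256), had 85 own-strand reads at 30 °C and 54 at 39 °C, or 3.53 (2.82 to 4.37) and 3.76 (2.83 to 4.91). It was the lowest of the 36 genes at both temperatures.

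CRC1, the carrier that moves carnitine esters across the inner mitochondrial membrane, stood at a different place in this order at each temperature (YOR100C, chromosome XV, 513295 to 514278). It had 169 own-strand reads at 30 °C and 479 in the smaller library at 39 °C, or 14.7 CPM per kilobase (12.6 to 17.1) and 70.0 (63.9 to 76.6). It was thus below CAT2 and YAT2 at 30 °C and above both at 39 °C.

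Among the PEX genes PEX19, PEX10, PEX2 and PEX22 had the highest levels at 30 °C, and the intervals of PEX2 and PEX22 overlapped. PEX19, the chaperone and import receptor for membrane proteins, had 252 CPM per kilobase (243 to 261) at 30 °C and 211 (201 to 222) at 39 °C. Its docking partner PEX3 had 99.6 (94.7 to 105) and 95.05 (88.9 to 102). PEX10, a RING ligase subunit that marks import receptors for release (YDR265W, chromosome IV, 998864 to 999877), had 2474 and 2310 own-strand reads, or 209 (201 to 218) and 328 (315 to 341). It was the highest of the 36 genes at 39 °C by point value, with an interval that overlapped that of FAA1.

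The other ligase subunit listed, PEX2, had 177 CPM per kilobase (168 to 185) at 30 °C and 135 (126 to 145) at 39 °C. PEX22, the membrane anchor of the ubiquitin-conjugating enzyme, had 176 (166 to 186) and 129 (118 to 141), while that enzyme, PEX4, had 55.6 (50.02 to 61.7) and 55.8 (48.6 to 63.8). The AAA ATPase gene PEX6 had 36.7 (34.8 to 38.8) and 27.0 (24.9 to 29.3), and its membrane anchor PEX15 had 141 (134 to 147) and 152 (144 to 161). In both of these pairs the anchor was read at a higher level per kilobase than the enzyme it holds. PEX8, which links docking and ligase complexes, had 50.8 and 46.2.

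Among the 4 import receptor and co-receptor genes listed, PEX5 and PEX7 had the higher levels. PEX5, the receptor for the common C-terminal signal, had 99.0 CPM per kilobase (94.9 to 103) at 30 °C and 109 (103 to 115) at 39 °C. PEX7, which takes the N-terminal signal of thiolase, had 105 (99.3 to 110) and 111 (103 to 118), intervals that overlap those of PEX5. The redundant co-receptors of Pex7 were lower and unlike each other. PEX21 had 69.1 (64.03 to 74.4) and 89.8 (82.4 to 97.7), and PEX18 had 27.0 (23.8 to 30.4) and 34.6 (30.0 to 39.7).

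In the docking complex, PEX13 had 103 CPM per kilobase (97.2 to 108) at 30 °C and 102 (94.8 to 109) at 39 °C, PEX17 had 56.5 and 49.9, and PEX14 had 17.4 (15.1 to 19.9) and 16.7 (13.8 to 20.0). PEX14 was the lowest PEX gene at both temperatures. Reads that fell on more than 1 feature were set aside as ambiguous in the count files, 3.92% to 13.3% of all reads per sample. PEX14 is among 6 of the 36 genes, with FAA1, SPS19, YAT2, PEX2 and PEX22, for which a feature of the other strand without an annotation entry carries the adjoining systematic number. Whether reads of PEX14 were set aside for this was not tested.

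The proliferation and size factors ran from 57.9 to 144 CPM per kilobase at 30 °C and from 49.8 to 147 at 39 °C. PEX25 had 144 CPM per kilobase at 30 °C and 147 at 39 °C and PEX27 102 and 113, while the related PEX11, the most abundant membrane protein of induced peroxisomes, had 57.9 and 50.2. PEX28 had 65.6 and 70.2, PEX29 67.8 and 71.5, and PEX30 67.2 and 49.8. At 30 °C the counting intervals of PEX28, PEX29 and PEX30 overlapped.

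The second comparison asked how the own-strand reads of each gene differed after 20 min at 39 °C. CRC1 was the only one of the 36 genes past 2-fold, and it was higher at 39 °C, with a log2 ratio of 2.25 (exact conditional binomial interval 1.99 to 2.51), a 4.74-fold difference. No gene was 2-fold lower and 35 lay within 2-fold. Over all 6162 tested features 4.4% were at least 2-fold higher and 2.69% at least 2-fold lower, 7.09% in either direction. The count of members past 2-fold is thus near or below this background, and the list as a whole did not stand out by it. CRC1 ranked number 22 from the top of all tested features.

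The metabolic genes had a median log2 ratio of 0.36 with quartiles of 0.10 and 0.66, and the PEX genes one of -0.00395 with quartiles of -0.20 and 0.11. The difference of the medians was 0.36. Over all tested features the median was -0.03, with quartiles of -0.33 and 0.28. Of the metabolic genes 11 of 14 lay above that median and of the PEX genes 12 of 22. With reads taken as independent, the interval lay above 0 for 10 metabolic and 6 PEX genes and below 0 for 2 and 5, while 31.5% of all features lay above and 38.8% below. For 2 metabolic and 11 PEX genes the interval included 0.

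Part of this offset ran with the level. Features were put into 10 classes of equal size by mean level per kilobase over both libraries, a step chosen after the data were seen. The median log2 ratio was 0.38 in the lowest class, 0.00 in class 5 and -0.34 in the highest. Against the median of its own class the metabolic genes had a median of 0.28, with 10 of 14 above it, and the PEX genes one of 0.03, with 12 of 22 above it. Of the metabolic genes 9 were in the lowest 3 classes, and of the PEX genes 3.

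**Figure D2:**
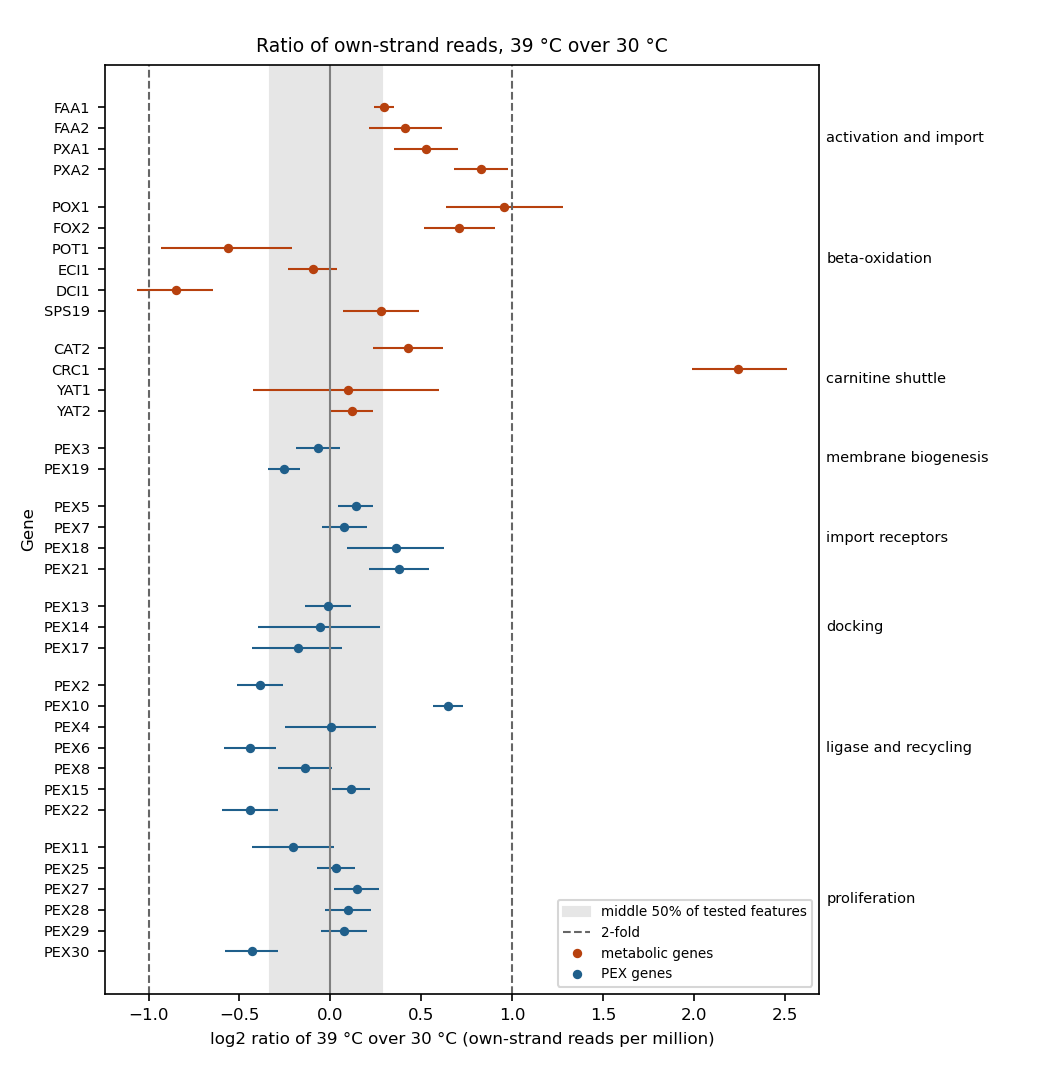
Log2 ratio of own-strand CPM, 39 °C over 30 °C, for each gene, with exact conditional binomial 95% intervals for counting error. Metabolic genes are in red and PEX genes in blue, the grey band is the middle 50% of all tested features (-0.33 to 0.28), and dashed lines mark 2-fold. CRC1 at 2.25 is the only gene past them, and DCI1 at -0.85 and POX1 at 0.96 come nearest among the rest.

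**Figure D3:**
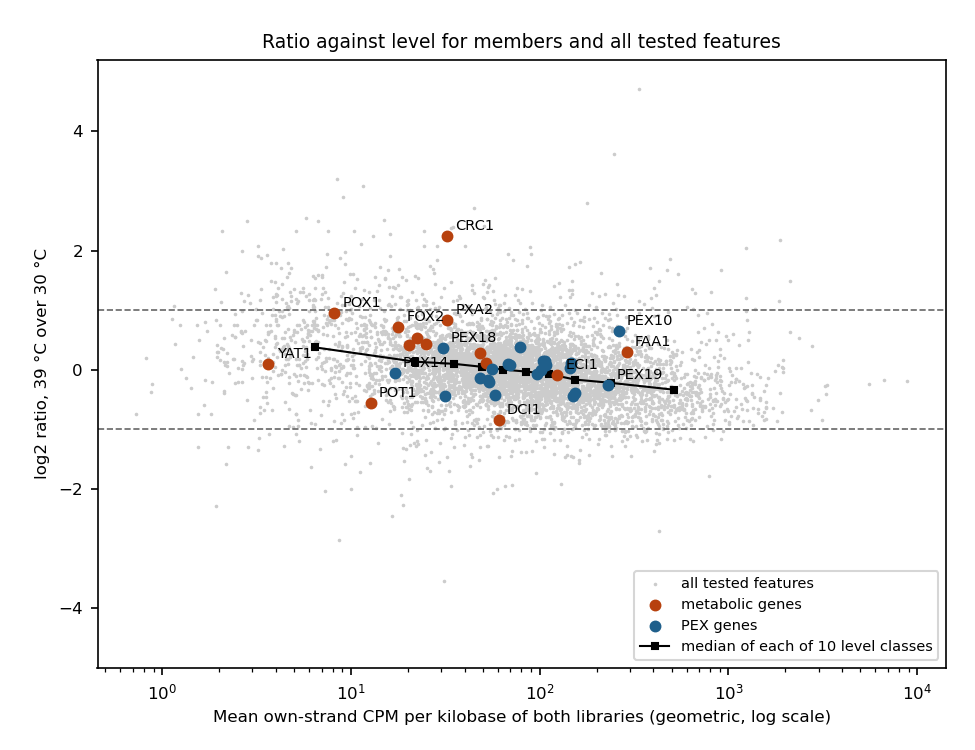
Log2 ratio against the geometric mean own-strand level of both libraries in CPM per kilobase (log axis), for all 6162 tested features (grey), metabolic genes (red) and PEX genes (blue). Black squares join the median ratio of each of 10 level classes, which runs from 0.38 in the lowest to -0.34 in the highest, and dashed lines mark 2-fold. CRC1 stands well above its class, and POT1 and DCI1 stand below theirs.

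All 4 activation and import genes were higher at 39 °C, each by less than 2-fold. The log2 ratio was 0.83 (0.68 to 0.98) for PXA2, 0.53 (0.35 to 0.70) for PXA1, 0.41 (0.21 to 0.61) for FAA2 and 0.30 (0.24 to 0.35) for FAA1. Each lay above the median of its level class as well, by 0.28 for FAA2 up to 0.73 for PXA2. FAA1 is the most deeply read of the 36 genes, so its interval is the narrowest.

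The beta-oxidation genes did not all differ in the same direction. POX1 had a log2 ratio of 0.96 (0.64 to 1.28) and FOX2 0.71 (0.51 to 0.90), whereas POT1, the last step of the same spiral, had -0.56 (-0.93 to -0.21). The interval of POX1 reaches past 2-fold and its read counts are small, so on which side of 2-fold it lies cannot be told at this depth, which also holds for DCI1 on the lower side. The isomerase paralogs also differed, with -0.85 (-1.06 to -0.65) for DCI1 and -0.10 (-0.23 to 0.04) for ECI1. SPS19 had 0.28 (0.07 to 0.49). Of the 6 genes 3 lay above and 3 below the median of all features. Against features of like level POX1 was at 0.58, number 123 of 617 in its class by ratio, FOX2 at 0.57, POT1 at -0.94 and DCI1 at -0.85. POX1 and POT1 belong to the lowest level class, where 18.5% of features were at least 2-fold higher.

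In the carnitine shuttle CRC1 stood alone. CAT2 had a log2 ratio of 0.43 (0.23 to 0.62), YAT2 0.12 (0.01 to 0.23) and YAT1 0.10 (-0.43 to 0.60). The intervals of the 3 acetyltransferases lay far below that of the carrier. Within its level class of 616 features CRC1 ranked number 3 by ratio, and the difference to the class median was 2.15. Its reads were on its own strand, with 8.65% (5.02 to 13.7) on the other strand at 30 °C and 5.89% (4.01 to 8.31) at 39 °C.

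PEX10 had the highest ratio of the PEX genes, 0.65 (0.56 to 0.73), which was 0.87 above the median of its level class. The co-receptors followed, PEX21 with 0.38 (0.21 to 0.54) and PEX18 with 0.36 (0.09 to 0.63). PEX5 had 0.14 (0.04 to 0.24) and PEX7 0.08 (-0.05 to 0.20). All 4 import receptor and co-receptor genes lay above the median of all features.

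On the lower side, PEX6 and PEX22 each had a log2 ratio of -0.44 (-0.59 to -0.30 and -0.60 to -0.29), PEX30 -0.43 (-0.58 to -0.29), PEX2 -0.39 (-0.51 to -0.26) and PEX19 -0.25 (-0.34 to -0.16). Against features of like level PEX19 was at -0.03, PEX2 at -0.22 and PEX22 at -0.28, while PEX6 was at -0.54 and PEX30 at -0.43. The ligase subunits PEX2 and PEX10 lay on opposite sides of 0, with intervals that did not overlap. Of the remaining PEX genes PEX15 with 0.11 (0.01 to 0.22) and PEX27 with 0.14 (0.02 to 0.27) had intervals just above 0. The 11 PEX genes whose interval included 0 ran from PEX11 with -0.21 (-0.43 to 0.02) to PEX28 with 0.10 (-0.03 to 0.22), and no difference was detectable for them at this depth.

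In the authors' deposited table, CRC1 and PEX10 are called up and the other 34 genes flat. The authors' deposited table gives CRC1 a log2 ratio of 2.32 and a probability of 0.97, and PEX10 a log2 ratio of 0.70 and a probability of 0.906, once its sign is turned to 39 °C over 30 °C. Of the 6918 features compared in the authors' deposited table, 3.05% are called up and 5.12% down. In the authors' deposited table every call of up or down has a probability of at least 0.9, whatever the fold. POX1, with a larger log2 ratio of 0.97 in the authors' deposited table, has a probability of 0.494 and is called flat.

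Reads on the opposite strand were counted in the same features, and they were common in some of these genes. At least 20% of the reads lay on the other strand at either temperature in 11 of the 36 genes, 7 of the 14 metabolic and 4 of the 22 PEX genes, against 25.3% of all tested features. This share also ran with level over all features, from a median of 65.4% at 30 °C in the lowest level class to 3.57% in the highest. The median was 17.5% for the metabolic and 5.65% for the PEX genes at 30 °C. Against the median share of the gene's own level class, 7 of the 14 metabolic and 16 of the 22 PEX genes lay above at 30 °C. At 39 °C these counts were 7 and 12, so at like level the share was not higher on the metabolic side. Own-strand reads enter both the level class and the share, so this comparison is not independent of level.

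YAT1 had most of its reads on the other strand, 324 against 85 at 30 °C and 163 against 54 at 39 °C, a share of 79.2% (74.96 to 83.0) and 75.1% (68.8 to 80.7). The other-strand log2 ratio was -0.24 (-0.53 to 0.03). The nearest annotated gene of the other strand, YAR035C-A, lies 80 bases downstream of YAT1 and does not overlap it. In POX1 the share was 48.3% and 44.3%, and in POT1 33.7% and 44.2%. All 3 genes belong to the lowest level class, whose median shares were 65.4% and 67.4%, so YAT1 lay above and POX1 and POT1 below what is common there.

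PEX11 showed the reverse, many other-strand reads at a middle level. It had 480 own-strand and 405 other-strand reads at 30 °C, and 248 and 416 at 39 °C (YOL147C, chromosome XV, 47933 to 48643). The other-strand share was 45.8% (42.4 to 49.1) and 62.7% (58.8 to 66.3), where the medians of its level class were 7.11% and 9.46%. The own-strand log2 ratio was -0.21 and the other-strand one 0.78 (0.58 to 0.99), with intervals that did not overlap, so both strands summed gave 0.33. The nearest annotated gene of the other strand, PSF3, lies 220 bases upstream of PEX11 and does not overlap it.

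PEX4 with 34.7% and 44.3%, PEX21 with 33.6% and 34.0% and PEX8 with 24.7% and 31.3% were the other PEX genes of this kind. SPS19 went the other way, from 23.4% (20.1 to 27.1) at 30 °C to 10.7% (7.71 to 14.3) at 39 °C, with 138 and 39 other-strand reads. Of the 36 genes only FAA2 overlaps an annotated gene of the other strand, BUD25, by 160 bases. The share in FAA2 was 21.1% and 29.8%, and whether the overlap bears on its reads was not tested. FOX2 with 29.4% and 28.5% and CAT2 with 21.7% and 27.4% complete the list.

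**Figure D4:**
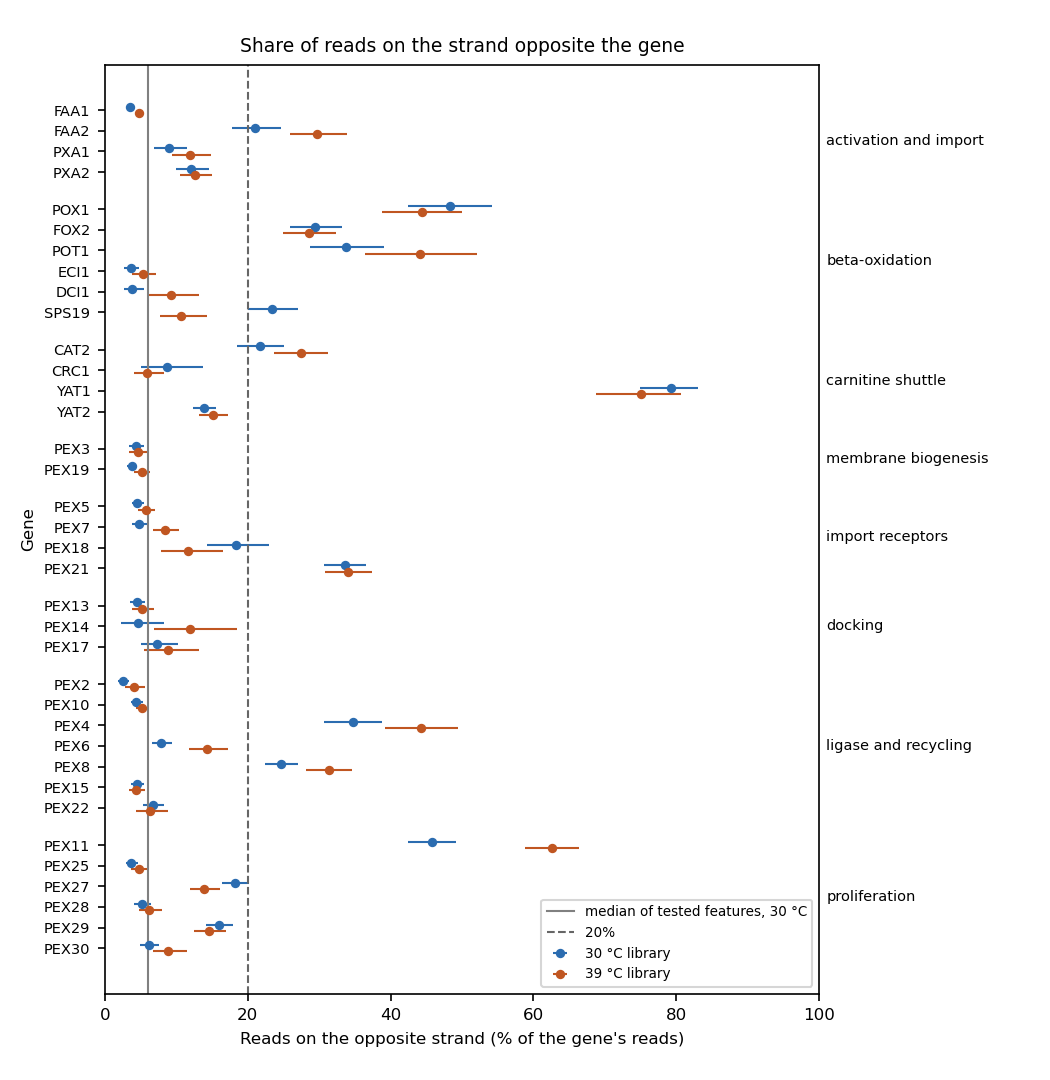
Share of each gene's reads on the strand opposite the gene, in percent, at 30 °C (blue) and 39 °C (orange), with Clopper-Pearson 95% intervals. The grey line is the median of all tested features at 30 °C (6.01%) and the dashed line 20%. YAT1 at both temperatures and PEX11 at 39 °C have more reads on the other strand than on their own.

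A further 33 genes of the same pathways, not members, were read alongside. They were 28 other peroxisomal and fatty acid genes and 5 regulators. All passed the read minimum, 2 were at least 2-fold higher, 1 was 2-fold lower and 30 lay within 2-fold, with a median log2 ratio of 0.07. These counts are near the 4.4% higher and 2.69% lower over all tested features. STR3, a cystathionine lyase with a peroxisomal signal, had 498 and 839 own-strand reads, a log2 ratio of 1.498 (1.34 to 1.66). CTA1, peroxisomal catalase, had 99 and 164, a log2 ratio of 1.47 (1.11 to 1.85), but 538 and 386 reads on the other strand. With both strands summed the log2 ratio of CTA1 was 0.53, and it belongs to the lowest level class, where 18.5% of features were at least 2-fold higher.

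FAA4, a further long-chain acyl-CoA synthetase, had 1720 own-strand reads at 30 °C and 478 at 39 °C, a log2 ratio of -1.10 (-1.25 to -0.95), and -0.98 with both strands summed. The main long-chain synthetases FAA1, at 0.30, and FAA4 thus lay on opposite sides of 0. The 4 of the 33 with most reads were CIT2, peroxisomal citrate synthase, with a log2 ratio of 0.49 (0.46 to 0.53), PNC1, nicotinamidase, with -0.26 (-0.31 to -0.21), FAA3 with -0.19 (-0.26 to -0.12) and AAT2, aspartate aminotransferase, with -0.47 (-0.56 to -0.37). Against features of like level CIT2 was at 0.83 and AAT2 at -0.30, while PNC1 at 0.08 and FAA3 at 0.03 lay on the other side of 0. Of the 5 regulators none was past 2-fold and their median log2 ratio was 0.47. Of these, named after their values were seen, OAF1 had 0.56, PIP2 0.50, OAF3 0.47 and ADR1 0.30, whereas SNF1, the kinase needed for growth off glucose, had -0.32 (-0.45 to -0.19).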

How the data were processed

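Per the submitters' processing notes, reads were handled with Bowtie 1.1.1 and HTSeq on sacCer3 and R64. For the strand setting, the annotation and any removal of duplicates the sources name nothing. The deposited files hold raw read counts per feature, not normalized, and 5 summary rows that were left out. Reads in no feature were 22.3% to 24.7% of each sample. The authors' deposited table gave lengths, names, a log2 ratio, a score (a probability) and a call. Across 6162 features that log2 ratio correlated at a Pearson r of -0.95 with 39 °C over 30 °C by own-strand counts, so its sign was turned. Another 2 columns, per-library values under names that match no label, were not used.

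The strand was read from the systematic name (6685 features). Annotation came from the RefSeq table of R64, which matched 6079 features. Log2 ratios used a pseudocount of 0.5 reads, and features with at least 20 own-strand reads were tested for 2-fold. The calculation, done with Python 3.11.15 and scipy 1.17.1, was tested on simulated Poisson counts. These hold no PCR copies and no difference between cultures, so that test checks the calculation and not whether the intervals hold for these reads. TMM (edgeR 4.0.16) and DESeq2 1.42.0 size factors, other totals, minimums and pseudocounts were alternatives, and no count model was fitted. Every member was described. Of the other genes those past 2-fold, the 4 with most reads and an annotated gene overlapping a member with 20% other-strand reads were named. PSF3 and YAR035C-A were added after their positions were seen. Members and lists were chosen with earlier results of these data known. No sequence is shown.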

Additional observations from a re-analysis of the deposited data

Results flagged for a closer look

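YAT1 and PEX11 were singled out because, in at least 1 library, they had more reads on the strand opposite the gene than on their own, which the comparisons of own-strand reads do not use. YAT1 had 79.2% of its reads there at 30 °C and 75.1% at 39 °C, and PEX11 had 62.7% at 39 °C. The samples hold no control for such reads. No group has as many as 4 samples, so no sample was compared with its group.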

How the results depend on the processing

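The median log2 ratio stayed between 0.28 and 0.43 for the metabolic genes over the 11 alternatives that apply to ratios, between -0.00395 and 0.05 for the PEX genes, and CRC1 stayed between 2.15 and 2.30. Members at least 2-fold higher numbered 2 with the total of own-strand reads and 2 with the 30 °C counts thinned to the 39 °C total, where POX1 reached 1.00 and 1.02. Of 385 ratios of single members under the alternatives 11 moved past their counting interval. Of these, 9 were relative to features of like level and 2 (SPS19 to 0.06, PEX11 to 0.33) with both strands summed. Part of the 385 could not move. The minimums of 1 and 100 reads change no member ratio, since each member has at least 139 reads. Leaving genes out does not change the ratios of those kept. The ratio of PEX over metabolic median levels was 4.11 at 30 °C and 2.51 at 39 °C with both strands summed, and 2.75 and 1.91 undivided by length. It was 2.02 and 1.95 without genes with 20% other-strand reads, a share that own-strand reads enter, so this step is not independent of level. With both strands summed 1 other pathway gene was 2-fold higher and 0 were 2-fold lower, and without genes with 20% other-strand reads 1 was higher. Scaling moved the median of all tested features from -0.03 to between -0.03 and 0.02. Relative to features of like level 7 of the 33 other genes also moved, with PNC1 and FAA3 crossing 0. Ratios relative to features of like level and levels undivided by length were added after the data were seen. No paired analysis was possible because each temperature has 1 library, and leaving out a library leaves no comparison. Low counts limit YAT1, POX1, POT1, CRC1 at 30 °C and PEX14.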
